A study of Homo sapiens and Mus musculus with 19 samples.

Results

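The genes followed here act in matrix breakdown, 10 in all: the metalloproteinases MMP1, MMP2, MMP3, MMP7, MMP9, MMP10, MMP13 and MMP14, and their inhibitors TIMP1 and TIMP2. A gene was represented by the probe sets that the array annotation ties to that symbol alone, and its brightest probe set over all arrays of a species stood for it. On the human arrays all 10 of the 19775 annotated genes were found, through 17 probe sets, and all 10 were among the 15212 genes bright enough to test. On the mouse arrays the 10 counterparts, with Mmp1a standing for MMP1, were found among 18194 genes, through 19 probe sets that also include the related Mmp1b. Of these 10, 8 were among the 12549 mouse genes tested. Mmp1a and Mmp7 were too dim.

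The study put NF-kB signalling up or down in lung cancer cells with a retrovirus that also marks the cell with GFP, and cells were sorted on GFP before RNA was taken. In the IKKb group the virus carried IKK beta made active by glutamates in place of both activating serines. In the IkB_SR group it carried the super-repressor form of IkB alpha, in which alanines replace the serines that would be phosphorylated. In the MiG group it carried GFP without either protein. Human A549, H23, H358, HCC827 and PC9 cells, grown in RPMI with serum, each gave 1 array for each of the 3 vectors, so a line is the replicate there. Mouse Lewis lung carcinoma cells, written LLC here and LLC-kB OVA in the sample titles, which do not explain the suffix, gave 2 IKKb arrays and 2 MiG arrays and were grown in DMEM with serum. All groups were therefore infected, sorted, cultured cells. The labels do not say whether the LLC arrays came from separate cultures, so p-values there measure only the spread between those arrays.

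Matrix metalloproteinases are zinc-dependent enzymes that cut collagens, laminins and other proteins outside the cell, and most are made as inactive precursors. MMP1 and MMP13 are collagenases, MMP2 and MMP9 gelatinases that cut type IV collagen of basement membranes, MMP3 and MMP10 stromelysins, MMP7 the small matrilysin, and MMP14 a membrane-anchored enzyme that activates the MMP2 precursor. TIMP1 and TIMP2 bind the active enzymes and block them, and TIMP2 also takes part in the activation of MMP2 by MMP14. IKK beta releases NF-kB by marking IkB for destruction. MMP9 is a long known NF-kB target, and many of these genes carry an AP-1 site near the start of transcription.

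A cluster on chromosome 11 holds 5 of the 10 human genes. In the RefSeq order the cluster runs MMP7, MMP20, MMP27, MMP8, MMP10, MMP1, MMP3, MMP12 and MMP13, 9 genes of which 5 are members. Promoter sequence was at hand for 4 of the 10 genes, from the RefSeq promoter table on build GRCh38.p14. The 120 bases before the start of transcription are shown 5′ to 3′, to set 2 genes of the cluster beside MMP14 and TIMP1, which lie outside it and were above the 40th percentile on all human arrays. Capitals mark the AP-1 pattern TGANTCA and the TATA pattern TATAAA. The windows are chr11:102530748-102530867 (minus strand) for MMP7, chr11:102780629-102780748 (minus strand) for MMP10, chr14:22836465-22836584 (plus strand) for MMP14 and chrX:47582316-47582435 (plus strand) for TIMP1.
MMP7: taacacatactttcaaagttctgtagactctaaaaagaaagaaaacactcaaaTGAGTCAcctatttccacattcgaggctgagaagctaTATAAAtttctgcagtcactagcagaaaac
MMP10: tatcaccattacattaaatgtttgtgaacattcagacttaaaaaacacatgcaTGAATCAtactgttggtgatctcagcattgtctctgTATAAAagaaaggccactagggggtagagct
MMP14: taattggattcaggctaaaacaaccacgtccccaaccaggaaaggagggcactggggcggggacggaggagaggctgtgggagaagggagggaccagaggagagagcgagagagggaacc
TIMP1: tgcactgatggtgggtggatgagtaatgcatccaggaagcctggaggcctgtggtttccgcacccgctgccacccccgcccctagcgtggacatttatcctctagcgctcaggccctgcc

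In both MMP7 and MMP10 the AP-1 pattern begins 67 bases before the start, and the TATA pattern begins 30 bases before it in MMP7 and 31 in MMP10. Neither pattern, searched on both strands, has an exact match in the 300-base windows (250 before to 50 after the start) of MMP14 and TIMP1. Near matches, such as tgagtaa in the shown TIMP1 bases and ggattca in those of MMP14, were not counted. The search therefore does not show that an AP-1 site is absent there. The NF-kB motif, also searched on both strands, was in none of the 4 windows. Of 35116 promoters of this length, 7.71% held TGANTCA, 11.5% TATAAA and 11.3% the NF-kB motif. The 4 windows differed in base composition too, with 35.7% G and C in MMP7, 36.3% in MMP10, 55.0% in MMP14 and 65.0% in TIMP1, against a median of 58.7%. Such matches describe the letters in a window and not whether a factor binds there.

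The arrays were deposited as MAS5 signals, a linear brightness per probe set that the authors scaled to a mean of about 500 on each array. A signal below the 40th percentile of its array, which was 28.7 to 45.0 on the human arrays and 30.1 to 39.6 on the LLC arrays, is called dim here. Folds and log2 differences below are on the scale of log2(signal + 16), which understates the difference of dim genes. The human IKKb array of H358 differed in its controls from the other arrays of its line. Its Dap spike-in signal was 4376, against 1103 on the IkB_SR and 1128 on the MiG array. Its actin 3′ to 5′ ratio was 1.74, against 1.38 and 1.41, and was the highest of all arrays. In the other human lines that ratio was 1.03 to 1.32. Across lines that Dap signal was not unusual, with 4354 on the PC9 IKKb array. PC9 MiG was at 2376, and the A549 arrays were at 153.9 to 161.2. The LLC arrays split by number in the same spike-in, with 1567 on IKKb array 1 and 1679 on MiG array 1, and 19.4 on IKKb array 2 and 28.7 on MiG array 2. For MMP7, MMP9, MMP13 and TIMP1, fitted differences of IKKb are given with and without the H358 IKKb array, as are the correlations. Fits of the other members are given with it. The LLC differences of Mmp9, Mmp13 and Mmp3 are also given within each number.

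In LLC cells, activated IKK beta went with more signal for 3 secreted enzymes, the gelatinase Mmp9, the collagenase Mmp13 and the stromelysin Mmp3, while the membrane enzyme Mmp14 and both inhibitors were close to the MiG arrays. Mmp9 differed more than any other of the 12549 tested genes. In the limma fit over all genes, none of the 8 tested members passed an adjusted p of 0.05, and neither did any other gene (0.0% of those tested). At an unadjusted p of 0.05 the fit picked 238 genes (1.9%), among them Mmp9, Mmp13 and Mmp3.

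Mmp9 had a signal of 1211 and 730 on the IKKb arrays, against 21.6 and 37.4 on the MiG arrays. Both MiG arrays were dim for this gene, so the fold is given as a bound on the mean over arrays. With each MiG signal raised to the level below which its array is called dim, IKKb was on average 18.5-fold higher. Single arrays can lie below this mean: within number 2 the fold was 14. The fitted difference was 4.42 ± 0.34 in log2 units (SE, 2 arrays each), with a limma p of 5.89e-06 and an adjusted p of 0.0552, which misses the threshold. It ranked 1 of 12549 by size and by p, but it was bright enough to be tested only through its IKKb arrays, so a gene in its place had to differ, and the p and rank are given as a description. Within number 1 the log2 difference was 5.03 and within number 2 it was 3.81. A second Mmp9 probe set gave 1339 and 295 on the IKKb arrays and 14.0 and 16.1 on the MiG arrays. Leaving out 1 array leaves a group with a single array, so only the log2 difference is given for such fits. For Mmp9 it was 4.06 without IKKb array 1, 4.78 without IKKb array 2, 4.16 without MiG array 1 and 4.67 without MiG array 2.

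Mmp13, the chief interstitial collagenase of the mouse, had 566 and 424 on the IKKb arrays, against 112 and 104 on the MiG arrays. No array was dim and the groups did not overlap. IKKb was 4.08-fold higher, a log2 difference of 2.03 ± 0.26 (SE, 2 arrays each) with an adjusted p of 0.33 from limma, and the gene ranked 16 by size and 5 by p. The log2 difference was 2.18 within number 1 and 1.87 within number 2. Over all 14 alternatives, those with 1 array left out among them, the log2 difference ran from 1.69 to 2.23.

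Mmp3 was bright on all LLC arrays, at 3697 and 3594 on the IKKb arrays against 1448 and 1646 on the MiG arrays. The groups did not overlap, and the arrays of each vector lay close together. IKKb was 2.35-fold higher, a log2 difference of 1.23 ± 0.18 (SE, 2 arrays each; adjusted p = 0.33, limma), which ranked 63 by size and 9 by p. The log2 difference was 1.34 within number 1 and 1.12 within number 2. With 1 array left out it was 1.21 without IKKb array 1, 1.25 without IKKb array 2, 1.14 without MiG array 1 and 1.32 without MiG array 2.

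**Figure D1:**
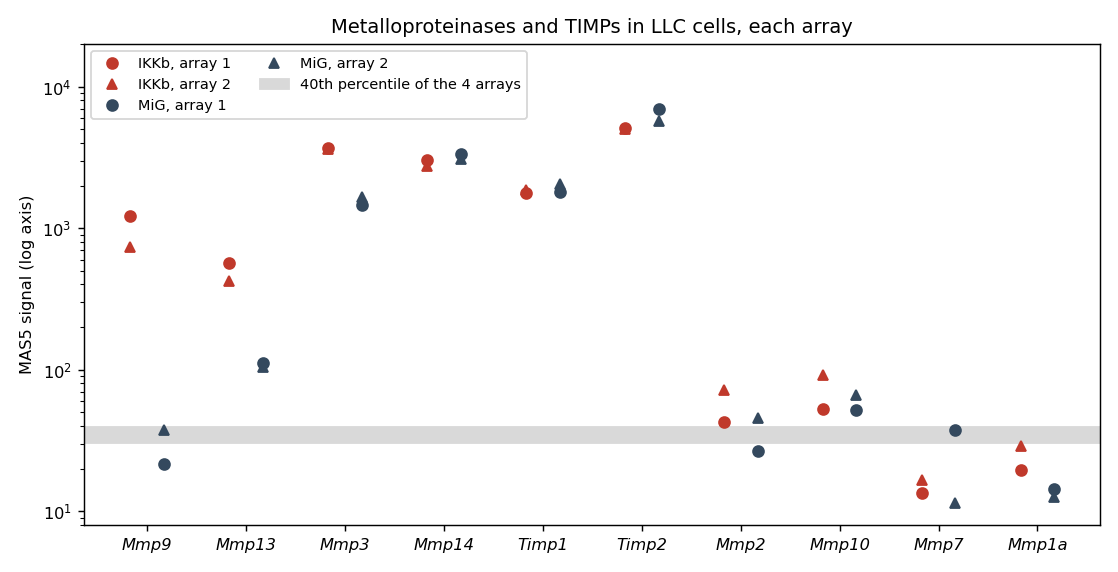
MAS5 signal on a log axis for each family member in LLC cells, with IKKb arrays 1 and 2 left of MiG arrays 1 and 2 for each gene and a grey band at the 40th percentile of the arrays. Mmp9, Mmp13 and Mmp3 lie higher on both IKKb arrays, Mmp9 with both MiG arrays within or below the band, while Mmp14, Timp1 and Timp2 lie close together.

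The membrane-bound activator Mmp14 gave 3022 and 2730 on the IKKb arrays and 3366 and 3103 on the MiG arrays, a log2 difference of -0.17 with a 95% interval from -0.59 to 0.26. The 2 further Mmp14 probe sets gave ratios of IKKb to MiG between 0.89 and 1.05. Timp1 gave 1772 and 1850 on the IKKb arrays and 1798 and 2035 on the MiG arrays, and these overlapped. Timp2 gave 5124 and 5022 on the IKKb arrays and 6890 and 5707 on the MiG arrays, a log2 difference of -0.31 with a 95% interval from -0.77 to 0.16. Timp2 was thus lower on both IKKb arrays, as was Mmp14, by amounts that the limma interval does not separate from 0. Of the 5 other Timp2 probe sets 4 were bright on all arrays, with ratios of IKKb to MiG from 0.678 to 1.06, and the fifth was dim on 3 of 4 arrays.

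The other LLC members were dim or nearly so. Mmp2 gave 42.6 and 71.9 on the IKKb arrays and 26.4 and 45.6 on the MiG arrays, and Mmp10 gave 52.6 and 92.2 against 51.6 and 66.3. Both overlapped between vectors. Mmp7 gave 13.3 and 16.7 on the IKKb arrays and 37.7 and 11.4 on the MiG arrays, and Mmp1a gave 19.7 and 29.0 against 14.3 and 12.5. These 2 and the related Mmp1b, at 16.3 to 23.3, were not tested. Counted over the 8 tested members, 3 were higher on both IKKb arrays than on either MiG array (Mmp9, Mmp13 and Mmp3) and 2 were lower (Mmp14 and Timp2). Over all tested genes 10.9% were higher in this way and 11.2% lower. The family was chosen with these 3 differences known and Mmp9 was tested only through its IKKb arrays, so nothing is read from the count.

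**Figure D2:**
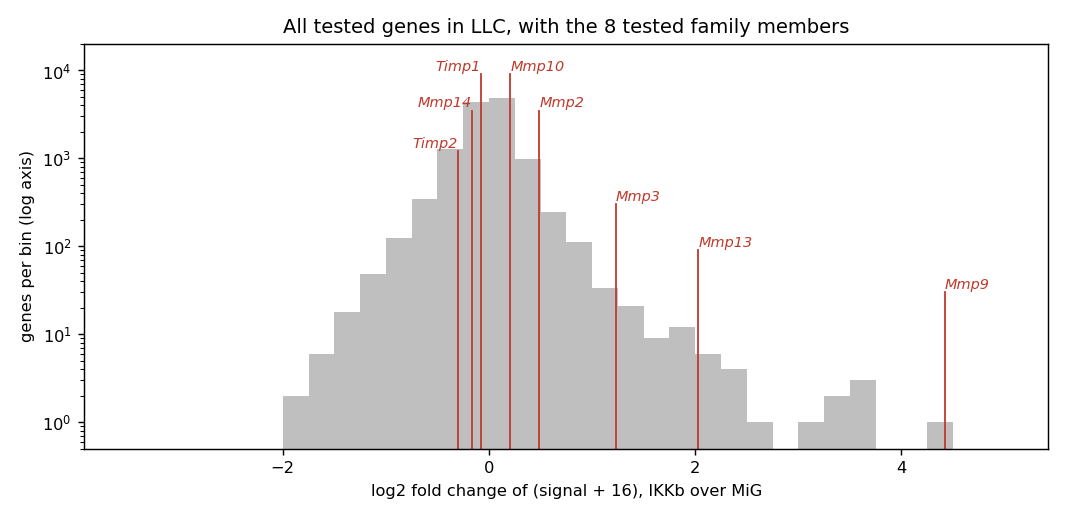
Number of tested LLC genes (log axis) by log2 fold change of signal + 16, IKKb over MiG, with lines for the 8 tested members. The changes run from -1.96 to 4.42, and Mmp9 is the highest of all while Mmp14, Timp1, Timp2, Mmp10 and Mmp2 lie in the bulk.

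In the 5 human lines the gene that stood out was again MMP9. It was far higher with IKKb in H358 and HCC827, moderately so in PC9, close to MiG in H23 and slightly lower in A549. The next largest mean difference of a member from MiG was that of MMP1, 0.65 in log2 units, and MMP13 and MMP3 averaged below MiG, with differences of -0.13 and -0.51. In the limma fit with line as a block, none of the 10 members passed an adjusted p of 0.05 for IKKb against MiG, and no gene did (0.0% of 15212). At an unadjusted p of 0.05, 839 genes (5.52%) were picked, among them MMP9 alone of the family.

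MMP9 in H358 had a signal of 27260 with IKKb, 507 with IkB_SR and 1117 with MiG. In HCC827 it had 2158 with IKKb, 106 with IkB_SR and 102 with MiG. In PC9 it had 482 with IKKb, 127 with IkB_SR and 136 with MiG. IKKb thus exceeded both other vectors in these 3 lines, with ratios of IKKb to MiG signal of 24.4, 21.2 and 3.55. In H23 the signals were 791 with IKKb, 513 with IkB_SR and 647 with MiG. In A549 they were 106 with IKKb, 119 with IkB_SR and 128 with MiG, the lone line in which IKKb was the lowest of the 3. The H358 IKKb value lay at percentile 99.9 of its array.

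Across lines the MMP9 difference between IKKb and MiG was 2.11 ± 0.66 in log2 units (SE, n = 5 lines), or 4.32-fold, with a limma p of 0.0061 and an adjusted p of 0.878. In this fit, here and below, a gene has 1 spread shared by all 15 human arrays. Its SE is therefore the same in the 3 comparisons and is not the spread of the 5 line differences of 1 comparison. Between IKKb and IkB_SR it was 2.43 ± 0.66, or 5.37-fold, with an adjusted p of 0.109. It was higher with IKKb in 4 of 5 lines in both comparisons, which share the IKKb arrays. Without the H358 IKKb array the log2 difference was 1.39 against MiG (adjusted p = 0.923) and 1.71 against IkB_SR (adjusted p = 0.198). Between IkB_SR and MiG the MMP9 difference was -0.31 ± 0.66 with an adjusted p of 0.995, and the largest gap was in H358, where IkB_SR gave 0.454 of the MiG signal.

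**Figure D3:**
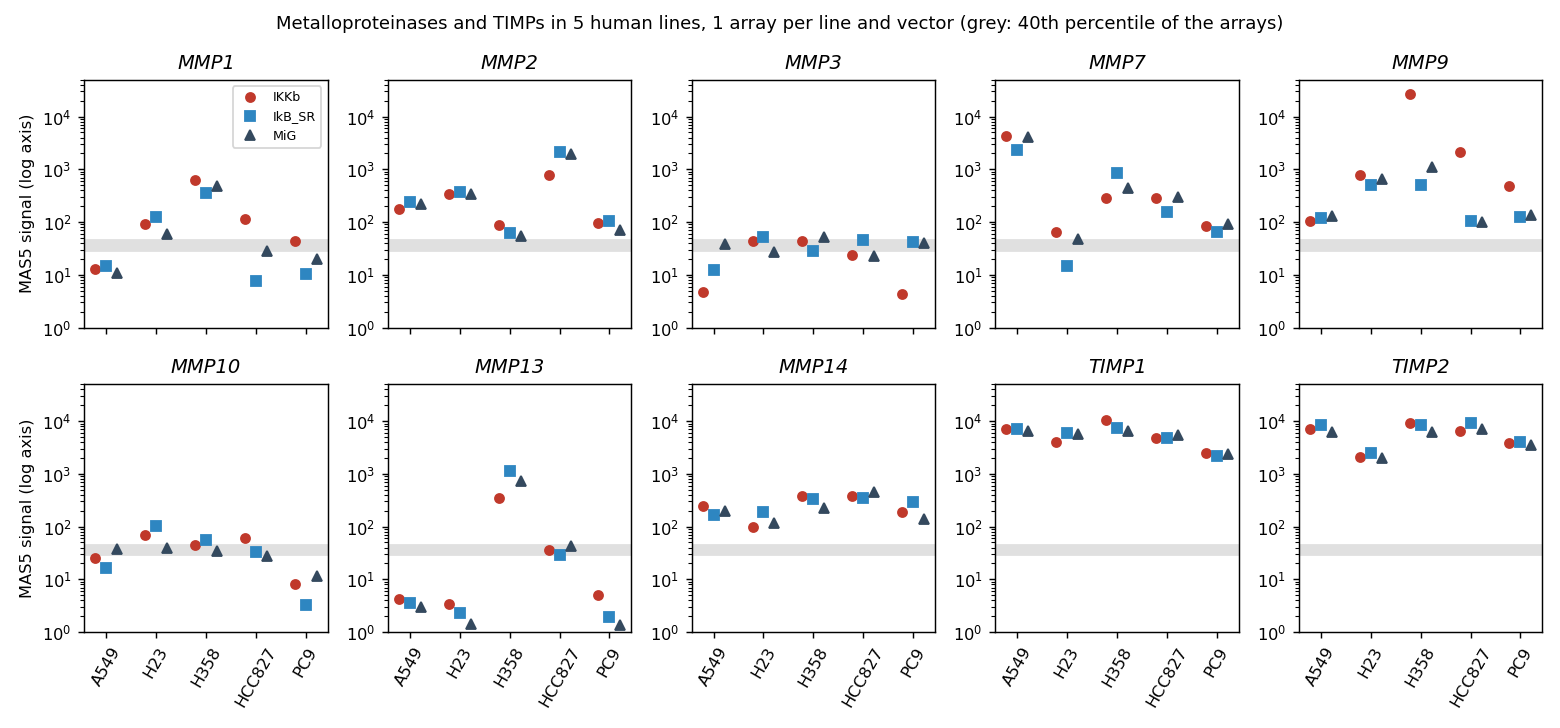
MAS5 signal on log axes for the 10 genes in 5 human lines, with IKKb, IkB_SR and MiG side by side for each line, 1 array per point, and a grey band at the 40th percentile of the arrays. MMP9 with IKKb separates from both other vectors in H358, HCC827 and PC9, MMP13 stands out in H358 with all vectors, and MMP7 in A549.

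The collagenase MMP1 was the lone member whose IKKb signal exceeded the MiG signal in each of the 5 lines, by small amounts in most. Its IKKb and MiG signals were 12.6 and 10.8 in A549, 93.5 and 59.97 in H23, 619 and 484 in H358, 113 and 28.2 in HCC827, and 43.8 and 20.3 in PC9. It was dim on both arrays of A549 and on the MiG arrays of HCC827 and PC9. The log2 difference was 0.65 ± 0.32 (SE, n = 5 lines; adjusted p = 0.878, limma), and 1 of 10 members moving 1 way in all lines compares with 3.29% of all genes higher and 4.83% lower. Against IkB_SR, MMP1 was higher with IKKb in H358, HCC827 and PC9 and lower in A549 and H23, with a log2 difference of 0.80 ± 0.32 and an adjusted p of 0.282. In HCC827 the IkB_SR signal was 7.70, the lowest of the 15 human MMP1 values.

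Human MMP13 was bright in H358 and dim or nearly so elsewhere. H358 gave 353 with IKKb, 1128 with IkB_SR and 731 with MiG, so the order of vectors was the reverse of that for MMP9 in the same line. HCC827 gave 36.7 with IKKb, 28.5 with IkB_SR and 42.3 with MiG, and the 9 arrays of A549, H23 and PC9 lay between 1.39 and 4.95. Over lines the log2 difference was -0.13 ± 0.27 for IKKb against MiG and -0.21 ± 0.27 for IKKb against IkB_SR (SE, n = 5 lines), with adjusted p-values of 0.966 and 0.789 from limma. Without the H358 IKKb array these were 0.16 and 0.08. In LLC the same gene was 4.08-fold higher with IKKb. No test of the difference between species was made.

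The stromelysins MMP3 and MMP10 were near background in every human line. MMP3 lay between 4.24 and 53.1 over the 15 arrays and was above the 40th percentile on 7. In A549 and PC9 it was at 4.79 and 4.24 with IKKb, against 38.5 and 39.7 with MiG, while the other lines showed no such gap. MMP10 lay between 3.22 and 102 and was above the percentile on 7 arrays, and its log2 difference for IKKb against MiG was 0.23 ± 0.27 (SE, n = 5 lines; adjusted p = 0.939, limma). MAS5 signals this close to background are noisy.

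The gelatinase MMP2 was lower with IKKb in HCC827, at 768 against 2104 with IkB_SR and 1961 with MiG. In H358 it was the other way round, with 87.9 with IKKb, 61.5 with IkB_SR and 54.6 with MiG. The remaining lines lay between 71.0 and 364 and their vectors differed less. The log2 difference over lines was -0.15 ± 0.23 for IKKb against MiG, with a 95% interval from -0.63 to 0.34. With IkB_SR, MMP2 was above MiG in all 5 lines, by log2 differences of 0.10 to 0.13 in 4 lines and 0.45 in PC9, and the limma difference was 0.18 ± 0.23 with an adjusted p of 0.995. A second, dimmer MMP2 probe set went the other way in 4 lines: its ratio of IkB_SR to MiG signal was 1.53 in PC9 but 0.169 in HCC827, 0.498 in H358, 0.618 in A549 and 0.802 in H23, with the IkB_SR arrays of H23, H358 and HCC827 dim. With the mean of the probe sets the log2 difference was -0.14.

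For the matrilysin MMP7 the lines split. With IkB_SR it was lower than with MiG in A549 (2347 against 4032), H23 (14.6 against 47.0), HCC827 (156 against 293) and PC9 (65.2 against 90.9), and higher in H358 (844 against 450). With IKKb the signals were 4278 in A549, 64.8 in H23, 285 in HCC827 and 84.4 in PC9, each above IkB_SR, and 289 in H358, below it. H358 thus ran against the 4 other lines. The log2 difference between IKKb and IkB_SR was 0.38 ± 0.29 over 5 lines (adjusted p = 0.607, limma). Without H358 it was 0.84 ± 0.17 over 4 lines with a limma adjusted p of 0.0412. This was the 1 of 17 alternatives that passed the threshold. It leaves out the line that disagreed with the others, so nothing is read from its p. Without the H358 IKKb array alone the log2 difference was 0.68 (adjusted p = 0.283, limma).

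MMP14 was above the 40th percentile on all 15 human arrays, between 98.8 and 463. Its log2 difference was 0.18 ± 0.21 for IKKb against MiG, 0.31 ± 0.21 for IkB_SR against MiG and -0.13 ± 0.21 for IKKb against IkB_SR (SE, n = 5 lines), and the adjusted p-values from limma were 0.943, 0.995 and 0.843. The 3 other MMP14 probe sets each had their highest signal in HCC827, and they differed between vectors otherwise than the one used. In H358 one gave 107.9 with IKKb, 64.7 with IkB_SR and a dim 11.8 with MiG, and another gave 166 with IKKb, 57.4 with IkB_SR and 50.5 with MiG, while the third was dim there. With the mean of the probe sets the log2 difference between IKKb and IkB_SR was 0.19 in place of -0.13. TIMP1 lay between 2185 and 10560, and both IKKb and IkB_SR differed from MiG by less than 0.1 log2 units on average, with 95% intervals from -0.25 to 0.31 for IKKb and from -0.28 to 0.28 for IkB_SR. The highest TIMP1 signal, 10560, was on the H358 IKKb array, against 7406 with IkB_SR and 6593 with MiG, and without that array the log2 difference was -0.11 against either vector.

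TIMP2 showed a small and even difference between IkB_SR and MiG. The IkB_SR and MiG signals were 8571 and 6351 in A549, 2499 and 2011 in H23, 8402 and 6247 in H358, 9360 and 7174 in HCC827, and 4031 and 3514 in PC9. IkB_SR was above MiG in every line, by 1.15-fold to 1.35-fold. The log2 difference was 0.35 ± 0.09 (SE, n = 5 lines), with a limma p of 0.00179 and an adjusted p of 0.865. Both other TIMP2 probe sets were also higher with IkB_SR in all 5 lines, with ratios from 1.08 to 1.56 for one and from 1.02 to 1.38 for the other. Between IKKb and IkB_SR the TIMP2 difference was -0.20 ± 0.09 (adjusted p = 0.34, limma), with IKKb lower in all lines but H358.

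For IkB_SR against MiG no member and no gene passed the adjusted threshold (0.0% of 15212), and 675 genes (4.44%) had an unadjusted limma p under 0.05, among them TIMP2. MMP2 and TIMP2 were higher with IkB_SR in all 5 lines and no member was lower in all 5, beside 4.04% of all genes higher and 3.71% lower. For IKKb against IkB_SR, the vectors that push NF-kB in opposite directions, 142 genes passed (0.933%), 93 higher with IKKb (0.611%) and 49 lower (0.322%), and none of the 10 members was among them. Unadjusted, 2160 genes (14.2%) and 3 members had a p under 0.05: MMP1, MMP9 and TIMP2. No member moved 1 way in all 5 lines in that comparison, against 4.51% of genes higher and 5.73% lower. The 10 members had a median log2 difference of 0.09 between IKKb and MiG, where all tested genes had -0.0144. Between IkB_SR and MiG the members' median was 0.04 and that of all genes -0.000765. Between IKKb and IkB_SR it was -0.05 for the members and -0.0141 for all genes.

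**Figure D4:**
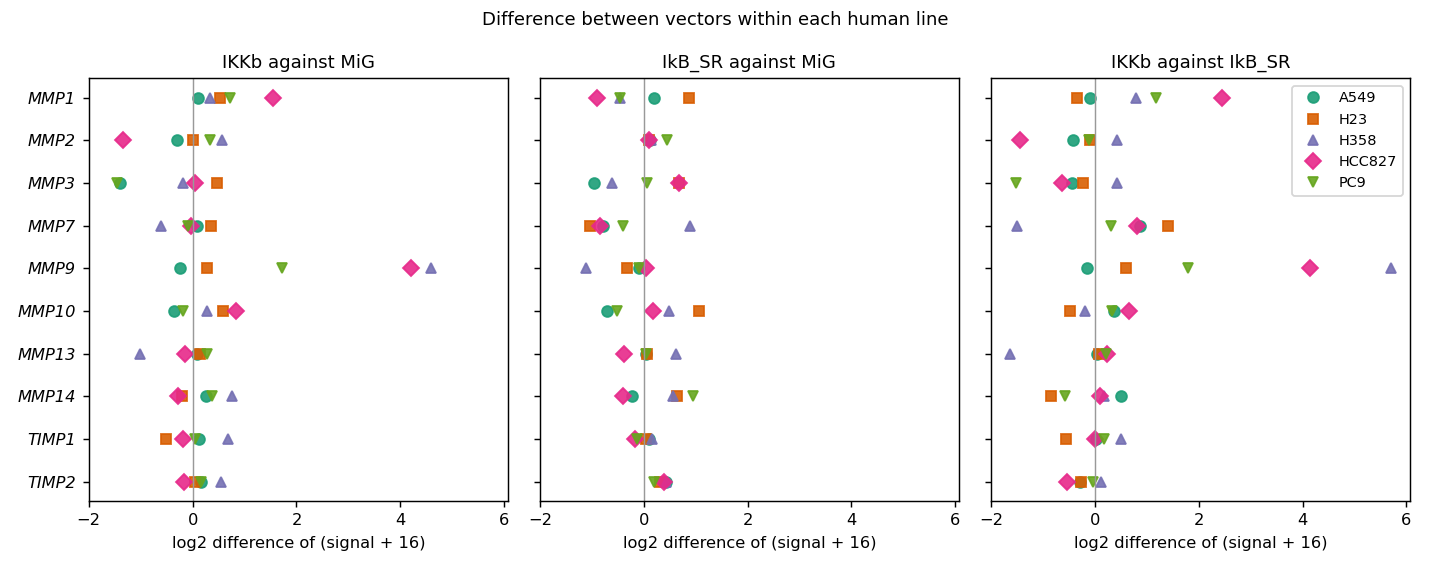
Log2 difference of signal + 16 between vectors for each gene, 1 point per human line and a panel for each of the 3 comparisons. The MMP9 points for H358, HCC827 and PC9 lie at 1.72 to 4.59 in the comparison of IKKb with MiG, and the 5 TIMP2 points for IkB_SR against MiG lie together between 0.20 and 0.43.

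The lines also differed in level, described here over the 3 arrays of a line, whatever the vector. MMP1 averaged 484 ± 135 in H358 (SD, n = 3 arrays), then 92.4 ± 31.9 in H23, 49.7 ± 56.0 in HCC827, 24.8 ± 17.2 in PC9 and 12.7 ± 1.9 in A549. H358 was above all other lines for MMP1, while HCC827 overlapped H23, PC9 and A549, and PC9 overlapped A549. MMP7 averaged 3552 ± 1051 in A549, 528 ± 285 in H358, 244 ± 77.0 in HCC827, 80.1 ± 13.3 in PC9 and 42.1 ± 25.4 in H23, and A549 lay clear of the rest, while H358 and HCC827 overlapped. MMP2 averaged 1611 ± 734 in HCC827, 346 ± 15.6 in H23, 210 ± 33.5 in A549, 89.5 ± 16.6 in PC9 and 68.0 ± 17.6 in H358, with overlap between PC9 and H358. MMP13 averaged 737 ± 388 in H358 and 35.9 ± 6.9 in HCC827.

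The inhibitors followed another order. TIMP1 averaged 8186 ± 2095 in H358, 6843 ± 305 in A549, 5283 ± 1061 in H23, 5066 ± 362 in HCC827 and 2351 ± 149 in PC9 (SD, n = 3 arrays), and PC9 was below every other line, while H358 overlapped A549 and H23 overlapped HCC827. TIMP2 averaged 7910 ± 1479 in H358, 7649 ± 1529 in HCC827, 7332 ± 1132 in A549, 3822 ± 272 in PC9 and 2198 ± 263 in H23. The 3 highest lines overlapped for TIMP2, and H23 and PC9 each stood apart below them. MMP14 ran from 396 ± 59.5 in HCC827 to 135 ± 47.8 in H23, with neighbouring lines overlapping. For MMP9 the order by median signal was H358, H23, PC9, A549 and HCC827, at 1117, 647, 136, 119 and 106, so HCC827, which gave the second highest value with IKKb, was the lowest by its median. H358 and H23 overlapped for MMP9, as did PC9 and A549. HCC827, at 101.9 to 2158 for MMP9, overlapped every other line.

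Other genes of matrix turnover showed few differences past the threshold. Of 15 further human metalloproteinases 8 were tested and none passed in any comparison, and in LLC 4 of 14 were tested and none passed. Of the 20 ADAM and ADAMTS proteases, which shed or cut cell-surface and matrix proteins, 17 human and 18 LLC genes were tested and none passed. Of 6 other inhibitors (TIMP3, TIMP4, RECK, A2M, TFPI2 and SERPINA3) none passed. All 4 tested in LLC lay below 0, with a median log2 difference of -0.49. Of these 4, 2 were lower on both IKKb arrays than on either MiG array, beside 11.2% of all tested LLC genes. In the human lines all 6 lay above 0 for IKKb against MiG, with a median of 0.15, and 5 of 6 for IKKb against IkB_SR, with a median of 0.16. Of 20 matrix and basement membrane genes 17 human and 16 LLC genes were tested and none passed, with a median of -0.18 in LLC. There 5 of the 16 were lower on both IKKb arrays than on either MiG array and 0 higher. The counts of genes that passed stand beside 0.0% of all genes in LLC and 0.933% for IKKb against IkB_SR.

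Genes of the lists of activators and of transcription factors passed, in the human comparison of IKKb with IkB_SR. Among 15 activators and partners 1 rose, ITGAV, an integrin chain. Its IKKb and IkB_SR signals were 5949 and 4242 in A549, 9676 and 5681 in H23, 10540 and 5948 in H358, 4391 and 3645 in HCC827, and 4500 and 2637 in PC9, a 1.54-fold difference (adjusted p = 0.00881, limma). Among 17 transcription factors known to act on metalloproteinase promoters 3 rose and 1 fell, beside 0.611% of all genes higher and 0.322% lower. Both lists were chosen with earlier results of these data known, so nothing is read from these counts. NFKB1, an NF-kB subunit and NF-kB target, rose 1.8-fold (adjusted p = 0.00143), ETS1 rose 2.87-fold (adjusted p = 0.00536) and the AP-1 subunit FOSL1 rose 1.57-fold (adjusted p = 0.0369), each in 5 of 5 lines, although FOSL1 was nearly equal in A549, at 539 with IKKb and 530.1 with IkB_SR. FOS, which pairs with JUN proteins in AP-1, was the one that fell, by 2.17-fold (adjusted p = 0.0402, limma), and in A549 its signals of 867 with IKKb and 873 with IkB_SR were nearly equal. The median over the 17 factors was 0.22. NFKB1 passed without any 1 line. The limma adjusted p of ETS1 was 0.0532 without PC9, that of ITGAV 0.0525 without H23 and 0.0641 without PC9, and leaving out H23, H358, HCC827 or PC9 put FOSL1 at 0.095 to 0.176 and FOS at 0.104 to 0.156. Over all 17 alternatives FOS missed the threshold in 13 and FOSL1 in 10.

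Since leukocytes and fibroblasts also make these enzymes, markers of other cells were read beside them. All arrays carried epithelial signal: at least 4 of 6 epithelial markers were above the 40th percentile on every human array. On the LLC arrays 2 to 3 of 6 were above it with IKKb (Krt8 and Krt18 on both) and 4 to 5 with MiG, and the summed epithelial signal was 9462 to 9888 with IKKb and 12120 to 14520 with MiG. All 4 tested epithelial genes were lower on both IKKb arrays than on either MiG array, beside 11.2% of all tested genes. Their median log2 difference was -0.79, and none passed the adjusted threshold. Krt19 was bright enough to be tested only through its MiG arrays, so it had to differ. Nothing is therefore read from the count or the median. The 10 leukocyte and macrophage markers summed to 800 to 860 on the LLC IKKb arrays and 901 to 905 on the MiG arrays. Cd68, Csf1r and Cd14 were above the 40th percentile on every LLC array. In all, 4 of the 10 markers were above it with IKKb and 3 to 5 with MiG. Ptprc, Itgam, Lyz2, Cd163, S100a8 and S100a9 were not bright enough to test, and none of the 4 tested passed. Fibroblast markers summed to 10700 to 12420 with IKKb and 11100 to 20770 with MiG. Gene by gene, 4 of the 5 tested fibroblast markers lay above 0 and 1 below, with a median log2 difference of 0.064. Of these, 2 were higher on both IKKb arrays than on either MiG array and 0 lower, beside 10.9% and 11.2% of all genes. None passed the adjusted threshold. In the human lines 9 leukocyte markers summed to 299.5 to 4475 with IKKb, 324.5 to 2404 with IkB_SR and 307 to 4404 with MiG. In HCC827, where MMP9 was high with IKKb, the sum was 1444 with IKKb, 364 with IkB_SR and 620 with MiG, and 7 of the 9 were above the 40th percentile with IKKb, PTPRC among them, against 3 with IkB_SR and 5 with MiG. In H358, where MMP9 was highest, the sum was 299.5 with IKKb, 324.5 with IkB_SR and 307 with MiG. In PC9 it was 4475, 2404 and 4404 in the same order of vectors. PTPRC was above the percentile on too few arrays to test. One of them, the integrin chain ITGAM, rose with IKKb against IkB_SR (adjusted p = 0.0327, limma). Its IKKb and IkB_SR signals were 166 and 41.8 in A549, 654 and 171.5 in H23, 60.1 and 28.6 in H358, 42.5 and 11.95 in HCC827, and 438 and 30.9 in PC9. It was dim on 3 of the 5 IkB_SR arrays, so no fold is given, and without A549, H23, HCC827 or PC9 its adjusted p was 0.0798 to 0.122. The part of any of these markers in the metalloproteinase values was not tested, and in such bulk RNA fewer cells of a type and less RNA per cell cannot be told apart.

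Among the members themselves, the closest pair across the 15 human arrays after the mean of each line was taken away was MMP1 and MMP9, with a Pearson correlation of 0.73, and of 0.86 without the H358 IKKb array. MMP2 and TIMP2 followed with 0.65 (0.61 without that array) and MMP7 and MMP13 with 0.65 (0.55 without it, and 0.42 without H358). The most opposed pair was MMP9 and MMP13 with -0.64, which rests on the H358 IKKb array: without it the correlation was 0.04, and without H358 it was 0.31. The genes whose pattern lay closest to MMP9 among all tested genes were the chemokine CCL20 (0.97), the activin subunit INHBA (0.97) and TRIM27 (0.97), and without the H358 IKKb array these were 0.942, 0.939 and 0.969. For MMP1 they were KYNU, an enzyme of tryptophan breakdown (0.93), CFAP99 (0.92) and the protease inhibitor SLPI (0.92), or 0.936, 0.92 and 0.918 without that array. For TIMP2 they were CD99 (0.90), KCNH3 (0.87) and KCNJ9 (0.87), or 0.903, 0.85 and 0.844 without that array. These are descriptions over 15 arrays that share lines and vectors, chosen as the highest of all tested genes.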

How the data were processed

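RNA of sorted cells was turned into biotin-labelled cRNA for 1-colour arrays, per the labels' protocols: 15 human and 4 mouse. The deposited values are intensities on a linear scale, computed with GCOS 1.4 and MAS5 per the submitters' processing notes. A mean trimmed by 2 percent at each end was checked to be about 500 on every array, so total RNA cannot be compared. Precision is limited by the few arrays. Probe sets naming 1 gene (41097 of 54675 human, 34958 of 45101 mouse; 1801 and 932 name several, 11777 and 9211 none) were used, with the brightest per gene. The annotation is the platform's and can be old.

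Genes above the 40th percentile of their array on at least 5 human or 2 mouse arrays were tested on log2(signal + 16) with limma 3.58.1 under R 4.3.3 (lmFit; two-sided eBayes, trended on intensity). P-values were adjusted by Benjamini-Hochberg over every tested gene, and 0.05 was the threshold. The human fit took 15 arrays with line as a block, since each line gave all 3 vectors (lowest correlation of deviations within a line 0.797). The LLC fit compared 2 arrays with 2 and no block, since no label explains the array numbers. Every member is named, with list genes that passed (at most 3 a list and direction) and the 3 genes nearest to a member. Members and lists were chosen with earlier results of these data known. Alternatives were other pseudocounts, normalisations, filters, probe set rules, priors and blocks, and each array or line left out. Plots used matplotlib 3.10.9 (Python 3.11.15). Mouse sequences, and promoters of the 6 other human members, were not used here.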

Additional observations from a re-analysis of the deposited data

Results flagged for a closer look

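Of 30 sets of 5 line differences (10 genes in 3 human comparisons), 2 held a line far from the other 4 by Dixon's test, where chance gives about 1 in 20. The first was MMP2 in IkB_SR against MiG, with a log2 difference of 0.4547 in PC9 and 0.10 to 0.13 in the other lines, from signals of 103 with IkB_SR and 71.0 with MiG. The second was MMP13 in IKKb against IkB_SR, with -1.634 in H358 (353 against 1128) and 0.04 to 0.24 in the other lines. H358 was the lone line in which MMP13 was bright, and its IKKb array differed in spike-in signal from the other arrays of that line. The difference is between single arrays, the IKKb array is 1 of them, and its part was not tested.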

How the results depend on the processing

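Of 607 member values under alternatives, 563 kept their direction and side of the threshold, 13 moved past it and 31 changed sign, none of these called. In LLC 0 members passed. With a pseudocount of 64 it was 1 (Mmp9, adjusted p = 0.0486, limma), and with the replicate block 3 of 223 genes (Mmp9 5.46e-15, Mmp13 1.34e-08, Mmp3 8.2e-09). Leaving out 1 LLC array leaves a group with a single array. The calls of those fits are counted in the 13, but nothing is read from them. Deviations of same-numbered LLC arrays correlated at 0.53, but with 2 pairs the numbers are not known to pair the arrays. Over all alternatives the log2 difference of Mmp9 ran from 3.433 to 4.999, and with all arrays kept its limma adjusted p ran from 5.46e-15 to 0.416. For IKKb against IkB_SR, leaving out a line gave 0 to 1 members. Genes passing, 142 in the main fit, ran from 0 to 149 over the alternatives. They numbered 0 without the line block, 15 with only the compared vectors and 21 without the trend. With the mean of probe sets they numbered 45, without the filter 86, and without PC9, HCC827 and H23 24, 31 and 67. For IKKb against MiG the mean of probe sets gave 1 gene, and for IkB_SR against MiG leaving out H358 gave 8 and only the compared vectors 1. Signs changed as follows. For IKKb against MiG, MMP7 was 0.001456 with median centring, MMP13 0.2601 with a pseudocount of 1 and TIMP1 -0.001242 with quantile normalisation. For IkB_SR against MiG, MMP2 was -0.1407 with the mean of probe sets, MMP10 -0.09116 with a pseudocount of 1 and TIMP1 -0.004169 with quantile normalisation. For IKKb against IkB_SR, MMP13 was 0.04911 with a pseudocount of 1 and MMP14 0.1872 with the mean of probe sets. Leaving out 1 array or line gave ranges that cross 0. In LLC these were -0.1207 to 0.5359 for Mmp10 and -0.1671 to 0.01014 for Timp1. For IKKb against MiG they were -0.3284 to 0.1511 for MMP2 (above 0 without HCC827), -0.164 to 0.2437 for MMP7, -0.2301 to 0.1587 for MMP13 and -0.1297 to 0.1686 for TIMP1, the last 3 turning without H358 or its IKKb array. For IkB_SR against MiG they were -0.4053 to 0.03904 for MMP1, -0.2056 to 0.2046 for MMP3, -0.1414 to 0.303 for MMP10, -0.05509 to 0.196 for MMP13 and -0.04133 to 0.04344 for TIMP1. For IKKb against IkB_SR they were -0.3227 to 0.1467 for MMP13, -0.2811 to 0.052 for MMP14 and -0.1092 to 0.1785 for TIMP1. The causes were not tested. Signals near background limit MMP3, MMP10 and, outside H358, MMP13. The list genes named in the report kept their direction under the same alternatives, which were added for them after the data were seen, and all 6 lost the call without the line block and with only the compared vectors. Of 17 alternatives the call was lost in 13 for FOS, 10 for FOSL1, 8 for ITGAM, 5 for ITGAV, 4 for ETS1 and 2 for NFKB1.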
